A study of Mus musculus with 16 samples.

Results

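The comparison described here set mouse embryonic stem cells after 24 hours of c-Raf stimulation against the same cells before induction. It rested on 4 of the 16 arrays of a time course, 2 arrays for 24h and 2 for 0h, placed in their groups by the sample labels. c-Raf is a kinase that activates Mek, and Mek activates Erk. In mouse embryonic stem cells this cascade lies below the FGF receptors. Its activity is known to move cells out of the naive pluripotent state, and blocking it holds them there. Active Erk also induces its own brakes, among them the Sprouty and Spred proteins and the dual-specificity phosphatases.

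All cells were E14tg2a embryonic stem cells grown in serum with LIF on gelatin, and the series describes them as carrying a constitutively active c-Raf fusion that tamoxifen switches on. The 24h cells received the FGF receptor inhibitor PD173074 at 250 nM for 24 hours and then 250 nM 4OHT for 24 hours, with the inhibitor kept on. The 0h cells received the inhibitor alone for the same 24 hours and no 4OHT. A further pair of groups, each of 2 arrays, was used as side comparisons: 8h cells, stimulated for 8 hours in the same way, and DMSO cells, which had only the vehicle, without inhibitor or 4OHT. The 24h cells had been in inhibitor for longer than the 0h cells, and a change with c-Raf activity and a change with longer culture or with 4OHT itself cannot be told apart in these arrays. The labels do not say that replicates came from separate cultures, so p-values measure only the spread between these arrays.

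Levels are log2 processed signals relative to the 75th percentile of their own array. A gene was represented by 1 probe and was tested where, in any of the 8 groups, both arrays had that probe well above background. This left 15660 of 20972 genes. Spots well above background made up 54.9% and 61.8% on the 24h arrays, against 60% and 67.2% on the 0h arrays. Replicate 1 arrays lay on one slide and replicate 2 arrays on another, and the shares were 54.9% to 60% on the first slide and 61.5% to 67.2% on the second. The records also conflict on identity. Every array's scanner values matched exactly 1 column of the deposited value table, but for 8 of the 16 arrays that column carries the label of another sample than the one to which the scanner file is attached. Both 24h replicate 1 and 0h replicate 2 are among these 8 arrays. The column headings were used throughout. Under the other reading 331 genes passed the test at 24h against 0h, and only 2 of them were shared in the same direction with the genes reported below. In that reading both 24h arrays lay on the second slide and both 0h arrays on the first. Time and slide cannot then be told apart.

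After 24 hours of stimulation 3709 genes differed from 0h, which is 23.7% of those tested (limma, Benjamini-Hochberg adjusted p under 0.05, 8 groups sharing 1 estimate of the spread). Of these, 1687 were higher (10.8%) and 2022 were lower (12.9%). The change reached 2-fold for 1064 of the higher and 1024 of the lower genes, and 4-fold for 449 and 363. All 3709 moved the same way in both replicate pairs, which a call already favours, since it needs a difference large against the spread between arrays. The change was larger in the replicate 1 pair for 75.3% of the higher genes, with medians of 1.41 log2 in pair 1 and 1.1 in pair 2. It was larger in that pair for 72.9% of the lower genes too, with medians of -1.12 and -0.89. The median over all genes tested was -0.01.

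With the replicate number, which is also the slide, as a block in the fit, 6181 genes passed, and they included all 3709. Of all genes tested 18.3% were higher in that fit (2872) and 21.1% lower (3309). List counts given below are to be read beside the shares of all genes tested, 10.8% higher and 12.9% lower in the fit without the block. Those for the block fit, or with an array left out, are to be read beside the count over all genes in the same setting. Leaving out an array lowered the count most for 24h replicate 1, to 1859 genes. It was 3244 without 24h replicate 2, and 2221 and 2256 without the first and the second 0h array. The 4 arrays fitted without the other groups gave 1533 genes, 52.5% of them higher. Centring each array on its median gave 2105 genes, 37.5% of them higher, against 45.5% in the scaling used here. Of the genes named below, median centring ended the calls of 18: Arc, Atf3, Bcl2l1, Bmp4, Braf, Ddx58, Dnmt3a, Lamp1, Lgals3, Mdm2, Ptgis, Rasa3, Sdha, Spry1, Tap1, Tnfrsf10b, Utf1 and Zfp42. The fit of the 4 arrays alone ended the calls of 45: Atf3, Axin2, Bcl2l1, Bmp4, Braf, Ccn2, Esrrb, Fbxo15, Fgfr2, Fn1, Foxd3, Ifitm3, Kdm3a, Klf2, Klf4, Krt17, Krt8, Lamp1, Lefty1, Lefty2, Lgals3, Mcf2, Mdm2, Myl9, Nanog, Ndufb5, Neurog3, Pdgfra, Pla2g4a, Prdm14, Ptgis, Rasa3, Sdha, Sfrp1, Spry1, Tap1, Tcl1, Tfcp2l1, Tnfrsf10b, Utf1, Vim, Xbp1, Zeb1, Zfp42 and Zic5.

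**Figure D1:**
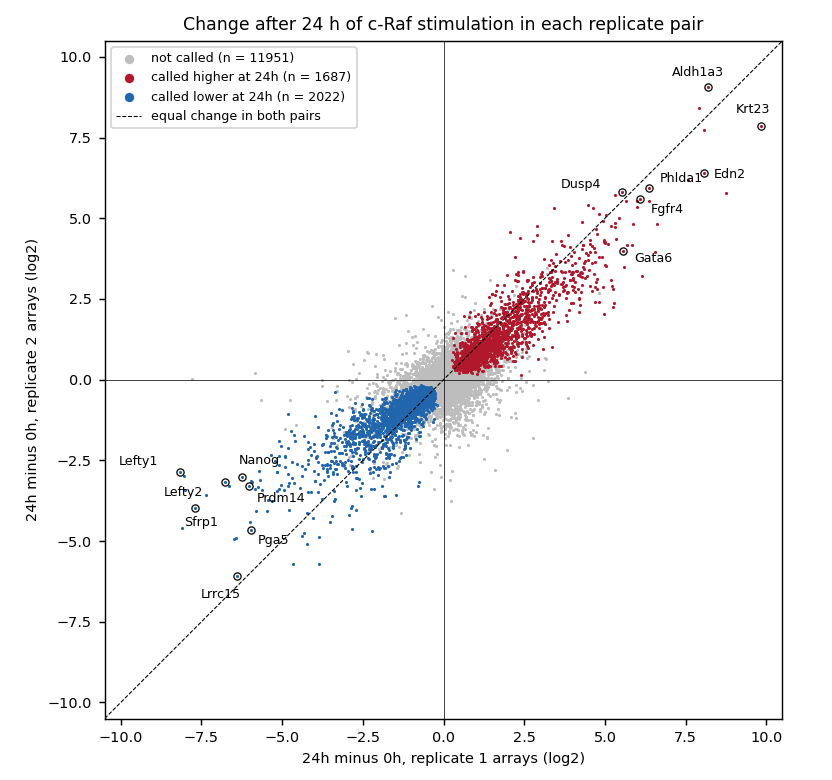
Each point is a gene, placed by its log2 change (24h minus 0h) between the replicate 1 arrays on the horizontal axis and between the replicate 2 arrays on the vertical axis; red genes were called higher at 24h (1687), blue lower (2022) and grey not called (11951). Called genes lie in the 2 quadrants where both pairs moved the same way, and many of the largest falls lie left of the dashed line of equal change, where pair 1 fell further than pair 2.

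Genes of the cascade itself were called higher at about the share of all genes. Of 20 tested members of the list of Raf, Mek and Erk genes, 2 were higher (10%, against 10.8% of all genes tested). None was lower, against 12.9% of all genes, and the list median was 0.09. Braf, the most active Raf kinase, rose by 1.12 ± 0.34 log2 (SE, here and below; adjusted p = 0.0393). It did not pass when all its probes were averaged, nor with no filter on dim probes. The call of Braf was lost without 24h replicate 1 and without either 0h array. The block fit called 4 members higher and 2 lower, where 18.3% of all genes tested were higher and 21.1% lower.

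The feedback inhibitors and ETS factors that Erk is known to induce had the highest median change of the 36 lists examined, 1.66 log2. Of 23 tested members 13 were higher and 2 lower. Phlda1, a pleckstrin-domain protein induced by growth factors, had levels of 5.74 and 4.77 at 24h, against -0.64 and -1.18 at 0h, a 71.5-fold rise (6.16 ± 0.47 log2; adjusted p = 5.21e-05). Among the dual-specificity phosphatases, which take phosphate off MAP kinases, Dusp4 read 4.12 and 3.14 at 24h, against -1.41 and -2.67 at 0h (change 5.67 ± 0.71, adjusted p = 0.000501). Dusp6, which acts on Erk in the cytoplasm, read 6.28 and 5.73, against 2.65 and 1.43 (3.97 ± 0.59, adjusted p = 0.00121). In each of these 3 genes the 24h arrays lay above the 0h arrays with no overlap. Dusp2 rose by 5.02 ± 0.30 and Dusp5 by 3.25 ± 0.52.

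The Sprouty and Spred genes encode inhibitors that act upstream of or on Raf. Spry4 read 1.98 and 2.43 at 24h, against -2.50 and -2.97 at 0h (4.94 ± 0.38, adjusted p = 5.11e-05). Spry2 rose by 2.55 ± 0.42, Spred1 by 2.59 ± 0.49 and Spry1 by 1.66 ± 0.43. Spred3 was not well above background on either 0h array and was brighter at 24h by at least 4.11-fold (adjusted p = 0.000129). A bound sets the brighter group against the signals of the dimmer arrays. A signal under its array's lowest value well above background was replaced by that value. Of the ETS factors, Etv4 read 7.17 and 6.34 at 24h, against 2.55 and 1.03 at 0h (4.97 ± 0.74), and Etv1 rose by 2.62 ± 0.34. Their relative Etv5 did not follow, with 6.67 and 6.49 at 24h, against 6.81 and 6.15 at 0h (0.10 ± 0.31, adjusted p = 0.873). Ets2, another ETS factor, was lower (-0.89 ± 0.14, adjusted p = 0.00183), as was Lgals3, a galectin (-1.22 ± 0.26, adjusted p = 0.00687).

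Of the 23 feedback genes 8 also stood above the DMSO level. The difference from DMSO was 5.36 for Phlda1 (adjusted p = 0.000262), 3.37 for Dusp2 (adjusted p = 0.000262), 2.96 for Dusp4 (adjusted p = 0.0239) and 2.10 for Dusp6 (adjusted p = 0.0467). For Etv4 it was 1.96 (adjusted p = 0.123), for Spry2 0.96 (adjusted p = 0.182) and for Etv1 0.49 (adjusted p = 0.42), none of which passed. No member of the list differed from the 8h level in either direction. Without 24h replicate 1 the differences of Dusp4 and Dusp6 from DMSO no longer passed, nor that of Dusp6 without 24h replicate 2. At 24h against 0h the calls of Spry1 and Rasa3, a Ras GTPase-activating protein, were lost without 24h replicate 1 or 0h replicate 2, and that of Lgals3 without 24h replicate 1 or 0h replicate 1.

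Immediate early genes are those that growth factors switch on without new protein synthesis. After 24 hours 16 of the 32 tested were higher and 1 was lower, with a median of 1.08. Egr1, a zinc finger transcription factor, read 5.08 and 4.43 at 24h, against 1.24 and 0.72 at 0h (3.78 ± 0.57, adjusted p = 0.00136). Egr2 was not well above background at 0h and was brighter at 24h by at least 14-fold (adjusted p = 0.00204). Myc, a growth regulator, read 3.86 and 3.40 at 24h, against 0.50 and -0.91 at 0h (3.84 ± 0.60, adjusted p = 0.00152). Of the AP-1 subunits, Fosl1 rose by 3.68 ± 0.59, Fosl2 by 3.25 ± 0.54, Fos by 2.70 ± 0.46 and Junb by 2.36 ± 0.53. Jun did not pass, with 3.19 and 2.52 at 24h, against 1.84 and 1.82 at 0h (adjusted p = 0.0585, and 0.0204 with the replicate block).

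Zfp36, a protein that destabilises mRNAs, was higher too. It read -0.33 and -0.60 at 24h, against -4.23 and -3.70 at 0h (3.50 ± 0.31, adjusted p = 0.000103). Ccn2, a secreted matricellular protein, was the 1 member that was lower, at 0.89 and 1.70 on the 24h arrays, against 2.72 and 2.81 on the 0h arrays (-1.47 ± 0.23, adjusted p = 0.00143). Genes of the same list that gave no call included Nr4a1 (0.50 ± 0.22, with an adjusted p of 0.0199 with the replicate block), Fosb (0.32 ± 0.56) and Egr3 (-1.21 ± 0.46). Leaving out 24h replicate 1 gave 10 higher genes, and leaving out 0h replicate 2 gave 12; the calls lost in both cases included Junb, Arc and Atf3, of which Atf3 was also lost without 0h replicate 1. With the replicate block 22 were higher.

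The level at 24h was not the peak for Egr1. Its replicate 1 levels were 1.24 at 0h, 2.19 at 30m, 5.24 at 1h, 6.85 at 2h, 6.80 at 4h, 6.01 at 8h and 5.08 at 24h, and its replicate 2 levels at these times were 0.72, 1.68, 4.28, 5.88, 5.53, 4.58 and 4.43. The highest array was the 2h array in both replicates. Phlda1 had its highest array at 24h in both replicates, though close to 4h. Its replicate 1 levels were 3.24 at 2h, 5.52 at 4h, 5.24 at 8h and 5.74 at 24h, and its replicate 2 levels 2.75, 4.49, 4.23 and 4.77. At 24h the difference from 8h was -0.54 for Egr1 (adjusted p = 0.654) and 0.52 for Phlda1 (adjusted p = 0.586), neither past the test.

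**Figure D2:**
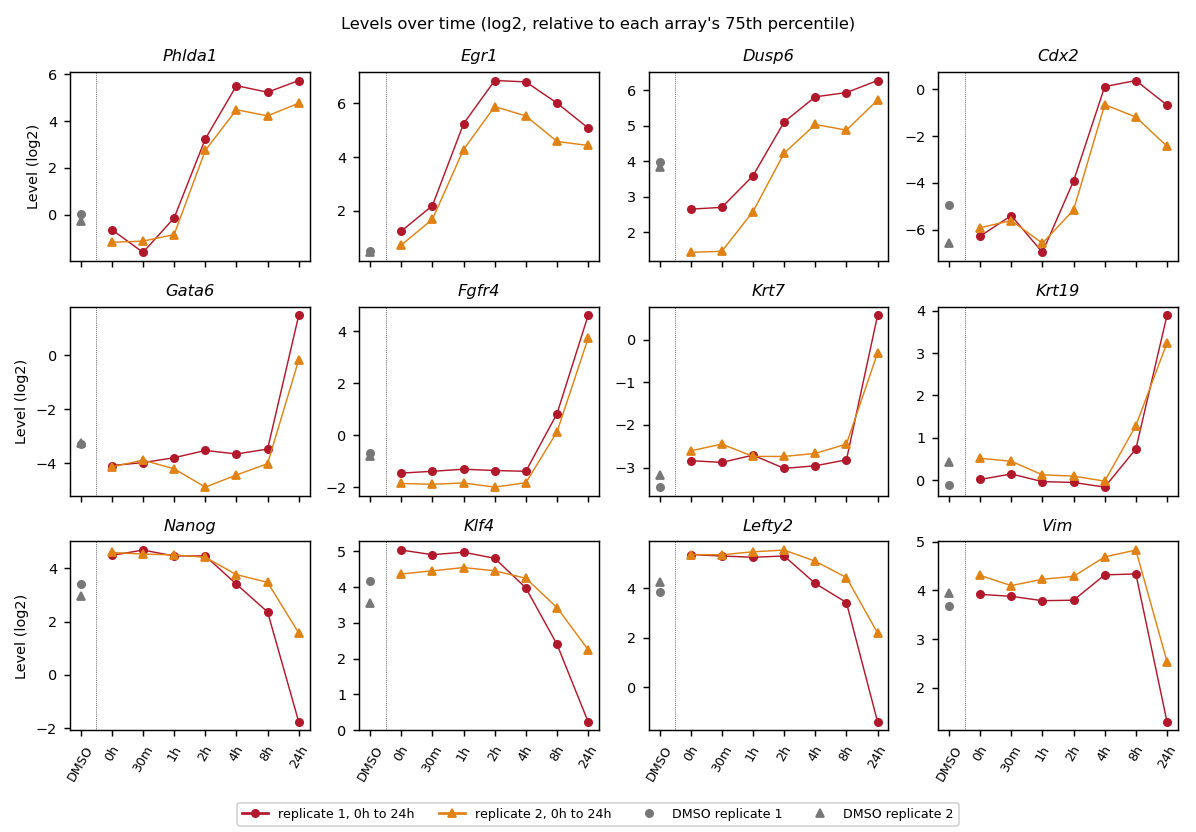
Levels of 12 genes (log2, relative to each array's 75th percentile) on all arrays in order of time, with DMSO at the left of each panel in grey; circles are replicate 1, triangles replicate 2. Phlda1, Egr1 and Dusp6 left their 0h level within the first hours, Gata6 and Krt7 stood near their 0h level on the 8h arrays and far above it on both 24h arrays, and Nanog, Klf4, Lefty2 and Vim had their lowest levels on the 24h arrays.

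Of 23 tested naive pluripotency genes 12 were lower and 1 was higher, with a median change of -1.30. Nanog, a homeodomain factor of the naive network, had levels of -1.76 and 1.57 on the 24h arrays, against 4.48 and 4.59 on the 0h arrays (-4.63 ± 0.80, adjusted p = 0.00251). The 2 values at 0h are close together and the 2 at 24h are far apart, though both lie below 0h. The change of Nanog was -2.97 without 24h replicate 1, -6.30 without 24h replicate 2 and -2.82 when all its probes were averaged, each past the test. Prdm14, a repressor of FGF receptor and DNA methyltransferase genes, read -2.62 and 0.28 at 24h, against 3.39 and 3.57 at 0h (-4.65 ± 0.86, adjusted p = 0.00363). Klf4, a LIF-responsive factor, read 0.23 and 2.25, against 5.04 and 4.37 (-3.46 ± 0.58, adjusted p = 0.00213).

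The same order of the 24h arrays held across these genes: replicate 1 lay below replicate 2 in all 12 genes that fell. The list median was -1.83 in pair 1 and -0.87 in pair 2. Esrrb, a nuclear receptor of the naive network, read 4.61 and 6.06 at 24h, against 7.42 and 7.24 at 0h (-2.0 ± 0.37). Tbx3 was at -3.20 ± 0.41, Tcl1 at -3.17 ± 0.65, Dppa3 at -3.04 ± 0.41, Fbxo15 at -2.87 ± 0.55, Fgf4 at -2.08 ± 0.35 and Klf2 at -1.55 ± 0.26. Fgf4 encodes the main FGF ligand that the cells make themselves. Zfp42 (Rex1) was at -1.30 ± 0.32 and Tfcp2l1 at -2.36 ± 0.65. The call of Zfp42 was lost without 24h replicate 1 or 0h replicate 1, and that of Tfcp2l1 without 24h replicate 1 or either 0h array.

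Gbx2, a homeobox gene that supports self-renewal downstream of LIF, was the 1 member that rose. With the replicate block 3 members were higher and 14 lower. Gbx2 read 3.70 and 3.0 at 24h, against -0.60 and -1.87 at 0h (4.58 ± 0.75, adjusted p = 0.002). Among the members of high signal that were not called, Dppa5a changed by 0.02 ± 0.14, Stat3 by -0.05 ± 0.35 and Nr0b1 by -0.27 ± 0.34. Between 10 and 13 members were lower whichever of the 4 arrays was left out, but only 3 when the 4 arrays were fitted alone. Against DMSO 9 members were lower and none higher, with Nanog at -3.29 (adjusted p = 0.0257) and Klf4 at -2.63 (adjusted p = 0.0173). Both of these differences from DMSO were lost without 24h replicate 1.

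**Figure D3:**
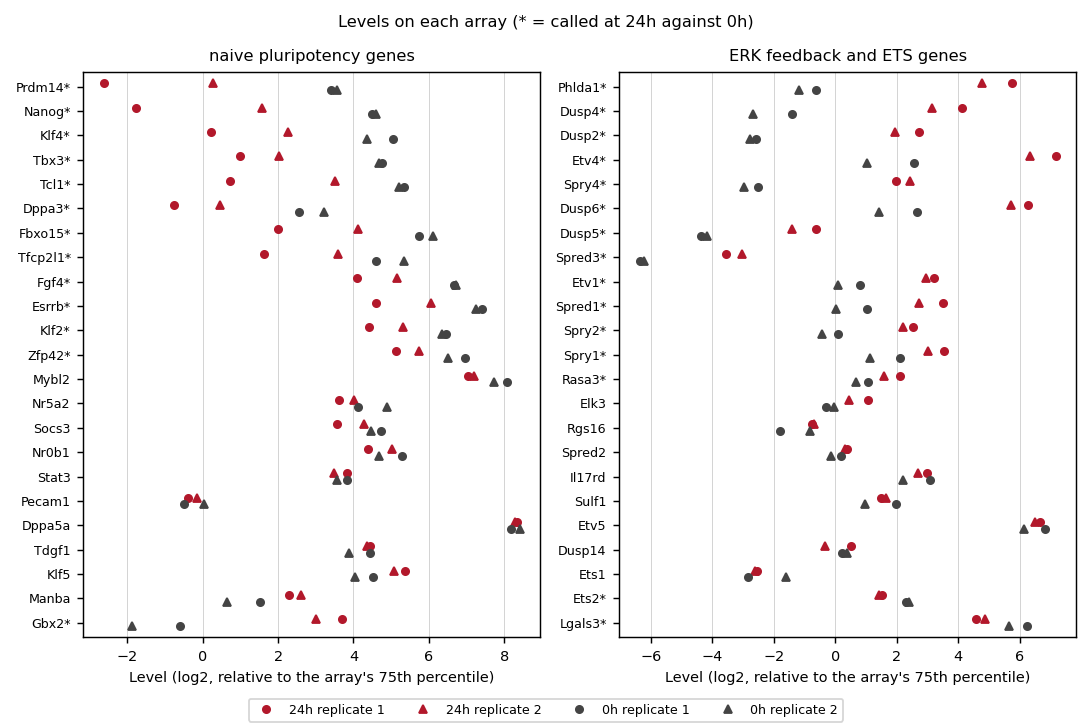
Levels (log2, relative to the array's 75th percentile) on the 4 arrays for the tested members of 2 lists, 24h in red above 0h in dark grey, circles for replicate 1 and triangles for replicate 2; an asterisk marks a gene called at 24h against 0h. The red points of the upper naive genes lie left of the grey ones and far apart from each other, with replicate 1 lowest, while the red points of the upper feedback genes lie right of the grey ones and closer together.

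The core of the pluripotency network stood differently. Pou5f1 (Oct4) read 6.30 and 6.23 at 24h, against 5.66 and 5.67 at 0h (0.60 ± 0.35, adjusted p = 0.268). Sox2 read 3.78 and 3.80, against 4.20 and 4.06 (-0.34 ± 0.14, adjusted p = 0.101, and 0.0476 with the replicate block). Neither was called, and both were well above background on all 4 arrays. Of 19 tested genes of the core list, 6 were lower and 2 higher, with a median of -0.17, and the block fit gave 8 and 5. Foxd3, a forkhead repressor of primed stem cells, was lower at -0.11 and 0.59 on the 24h arrays, against 2.15 and 1.52 on the 0h arrays (-1.60 ± 0.30, adjusted p = 0.00393). Utf1, a chromatin protein of pluripotent cells, was higher by 1.78 ± 0.42, a call lost without 24h replicate 1 or 0h replicate 2. Without 24h replicate 1 there were 2 members past the test, both lower, and without 0h replicate 1 there were 2 lower and 2 higher.

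Genes of the formative and early epiblast state were split. Of 19 tested, 5 were higher and 5 lower, with a median of 0.78. Pou3f1 (Oct6), a POU factor of the early epiblast, read 4.10 and 3.35 at 24h, against 0.44 and 0.02 at 0h (3.49 ± 0.49, adjusted p = 0.000908). Cdh2 (N-cadherin) rose by 2.63 ± 0.31 and Dnmt3a, a de novo DNA methyltransferase, by 1.01 ± 0.15. The zinc finger genes Zic5 and Zic2 were lower. Zic5 read -6.37 and -3.47 at 24h, against -1.54 and -2.40 at 0h (-2.95 ± 0.78), and Zic2 changed by -3.89 ± 1.16. The sizes of both falls are uncertain. Zic2 was not well above background on every one of the 4 arrays. The lower Zic5 level lay below that of Lrrc15 on the same array (-6.07), which was not well above background there. Zic2 lost its call without any 1 of the 4 arrays and with normexp background correction, and Zic5 without 24h replicate 1 or 0h replicate 1. Otx2 and Fgf5, the usual markers of the primed epiblast, gave no call (0.04 ± 0.34 and 0.23 ± 0.66). Fgf5 was dim, at -3.69 and -4.36 on the 24h arrays, against -3.40 and -5.12 on the 0h arrays.

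The Nodal feedback genes gave some of the largest falls on the arrays. Lefty1 and Lefty2 encode secreted Nodal inhibitors that Nodal signalling itself induces. Lefty2 read -1.39 and 2.20 at 24h, against 5.37 and 5.37 at 0h (-4.96 ± 0.86, adjusted p = 0.00268), and Lefty1 read -2.25 and 3.08, against 5.92 and 5.95 (-5.52 ± 1.31, adjusted p = 0.0126). Again the 0h arrays lie close together and the 24h arrays several log2 units apart. Gsc, a homeobox target of Nodal, was not well above background at 24h and was at least 6.61-fold lower there (adjusted p = 0.0114). Nodal itself read 3.64 and 3.93 at 24h, against 4.53 and 4.53 at 0h (-0.74 ± 0.25, adjusted p = 0.0584, and 0.0244 with the replicate block). The call of Lefty1 was lost without either 0h array, and that of Gsc without either 24h array or 0h replicate 2. Against DMSO, Lefty1 and Lefty2 were lower at 24h too (-4.8 and -3.64, adjusted p = 0.0419 and 0.0235), both lost without 24h replicate 1. Gsc was not well above background on the DMSO arrays either, and its 0h level lay above DMSO by the test (adjusted p = 0.0386).

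The Id genes, which encode dominant-negative helix-loop-helix proteins downstream of BMP, did not move as one. Id1 read 5.77 and 5.33 at 24h, against 2.78 and 2.52 at 0h (2.90 ± 0.40, adjusted p = 0.000885). Id2 read 0.41 and 1.02, against 3.16 and 3.18 (-2.45 ± 0.41), and Id4 read -3.82 and -2.40, against 0.88 and 0.65 (-3.87 ± 0.54). Id3 gave no call (-0.89 ± 0.44). Of the ligands, Bmp8b rose by 2.13 ± 0.22, and Gdf3 was lower at 4.36 and 4.65 on the 24h arrays, against 5.92 and 5.87 on the 0h arrays (-1.39 ± 0.15). Bmp4 rose by 2.68 ± 0.76, but its call was lost without either 24h array or without 0h replicate 2. In all, 10 of 28 tested BMP, Nodal and Id genes were lower and 5 higher, with a median of -0.73. The number lower was 5 or 6 when 24h replicate 1 or either 0h array was left out.

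In the Wnt list 9 of 28 tested genes were lower and 5 higher, with a median of 0.32. Sfrp1, a secreted Wnt inhibitor, read -6.23 and -2.26 at 24h, against 1.48 and 1.71 at 0h (-5.84 ± 1.08, adjusted p = 0.00361). It was not well above background on every one of these arrays, so the size of its fall is uncertain. Tcf7l1, the repressor that restrains naive genes, read 0.03 and 0.61, against 2.77 and 2.76 (-2.44 ± 0.28, adjusted p = 0.000322). The receptor Fzd2 was lower too (-2.12 ± 0.28). Sp5, a direct Wnt target, read -1.07 and -0.55 at 24h, against -2.58 and -3.18 at 0h (2.07 ± 0.36). Axin2, another, rose by 1.37 ± 0.35, with its call lost without 24h replicate 1 or 0h replicate 1. Without 0h replicate 1 the list held 5 lower and 3 higher genes.

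Lineage genes were checked list by list, since stem cell cultures can hold differentiating cells. These are bulk arrays, in which a change in the share of cells of 1 type cannot be told apart from a change in RNA per cell. Gata6, a zinc finger factor of primitive endoderm, read 1.49 and -0.16 at 24h, against -4.08 and -4.13 at 0h (4.77 ± 0.54, adjusted p = 0.000308). On the 8h arrays Gata6 was at -3.47 and -4.01, and the difference between 24h and 8h was 4.40 (adjusted p = 0.00161). Its usual partners did not follow: Gata4 read -2.65 and -2.48 at 24h, against -2.30 and -2.35 at 0h, and Sox17 read -3.18 and -3.96, against -4.47 and -4.34, with neither called (adjusted p = 0.808 and 0.149). Lama1, a laminin of the endoderm basement membrane, was lower, at 3.02 and 3.54 on the 24h arrays, against 4.91 and 4.95 on the 0h arrays (-1.65 ± 0.19, adjusted p = 0.000346). Of 28 tested primitive endoderm genes 6 were higher and 3 lower, with a median of 0.04.

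In the trophoblast list 6 of 16 tested genes were higher and 2 lower, with a median of 0.73. Cdx2, a caudal homeobox factor of trophectoderm and posterior mesoderm, was not well above background at 0h and was brighter at 24h by at least 13.8-fold (adjusted p = 0.00185), with levels of -0.68 and -2.44. Hand1, a helix-loop-helix factor of trophoblast and mesoderm, read -0.27 and -0.71 at 24h, against -5.22 and -5.04 at 0h (4.64 ± 0.30, adjusted p = 2.57e-05). The other risers were Bmp4 and the keratins Krt7, Krt8 and Krt18, which are shared with other epithelia. Other trophoblast factors were not called in that direction. Gata3 changed by -0.55 ± 0.62 and Tfap2c by -1.34 ± 0.58 (adjusted p = 0.129, and 0.00453 with the replicate block). Gata2 read -4.67 and -3.37 at 24h, against -1.07 and -0.61 at 0h (-3.18 ± 0.67), a call lost without 24h replicate 1. With the replicate block the list held 9 higher and 3 lower genes.

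Of 23 tested primitive streak and mesoderm genes 7 were higher and 5 lower, with a median of 0.07. Mesp1, an early mesoderm factor, was not well above background at 0h and was brighter at 24h by at least 5.39-fold (adjusted p = 7.95e-05). Cdx1 read 1.13 and 1.00 at 24h, against -1.34 and -1.39 at 0h (2.43 ± 0.15), and Twist1 read -1.50 and -0.19, against -3.87 and -4.58 (3.38 ± 0.64). T (Brachyury), the defining streak factor, was not well above background on any of the 4 arrays, and Eomes changed by 0.27 ± 0.29 (adjusted p = 0.566). Pdgfra, a receptor shared by mesoderm and primitive endoderm, was at least 2.89-fold higher than at 0h. With 24h replicate 1 left out 7 were higher and 3 lower, and with 0h replicate 2 left out 7 and 2.

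Of 17 tested neural genes 5 were lower and 1 higher (median -0.14). Ncam1, a neural cell adhesion molecule, read -2.14 and -1.25 at 24h, against 1.98 and 2.22 at 0h (-3.79 ± 0.38, adjusted p = 0.00017). Tubb3, the neuronal tubulin, read -0.12 and 0.93, against 2.94 and 3.47 (-2.80 ± 0.40), and Pax6, an eye and forebrain factor, read -4.47 and -3.39, against -1.79 and -1.87 (-2.10 ± 0.27). All 3 were well above background on both 0h arrays, and Pax6 was so on only 1 of the 24h arrays. Sox11 rose by 2.50 ± 0.41, and the progenitor markers Sox1 and Nes gave no call (0.09 ± 0.49 and -0.12 ± 0.34). Among fibroblast markers, 2 of 14 tested were higher and 2 lower, beside 10.8% and 12.9% of all genes tested. The collagens Col1a1, Col1a2 and Col3a1 gave no call (-0.74, 0.63 and 0.34 log2), of which Col1a1 passed with the replicate block (adjusted p = 0.0464), and Lum and Postn did not pass the filter. The share of differentiating cells on each array, and its part in the other changes, was not tested.

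The simple epithelial keratins, intermediate filaments of single-layered epithelia, were higher. Krt18 read 6.68 and 5.87 at 24h, against 3.27 and 3.78 at 0h (2.75 ± 0.30, adjusted p = 0.00026). Krt19 read 3.89 and 3.24, against 0.02 and 0.52 (3.30 ± 0.28, adjusted p = 8.69e-05), and Krt7 read 0.57 and -0.31, against -2.84 and -2.61 (2.85 ± 0.28, adjusted p = 0.00016). Krt8, the partner of Krt18, rose by 1.30 ± 0.26. Krt23, found among the largest changes of all genes, was not well above background at 0h and was brighter at 24h by at least 117-fold (adjusted p = 0.000289). For some of these keratins much of the rise came after 8h: Krt7 exceeded its 8h level by 2.77 (adjusted p = 0.000817) and Krt19 by 2.55 (adjusted p = 0.00103). Krt18 gave no call between 24h and 8h, and the call of Krt8 between them was lost without 24h replicate 1. Krt23 read 2.63 and 0.42 at 24h, against -6.99 and -3.58 at 8h, where 1 array was well above background (adjusted p = 0.00316). Krt17, a keratin of stratified epithelia, was lower (-1.70 ± 0.40), a call lost without 24h replicate 1 or 0h replicate 1.

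Several contractile and actin-binding genes of that list were lower. Myl9, a myosin light chain, read -3.05 and -1.96 at 24h, against -0.58 and -0.79 at 0h (-1.82 ± 0.38), and Cnn2, a calponin, was at -1.13 ± 0.23. Zyx, a focal adhesion protein, rose by 2.49 ± 0.42. Actb gave 8.86 and 8.64 at 24h, against 8.60 and 8.59 at 0h (0.15 ± 0.23, not called). In total 6 of 26 tested genes were higher and 7 lower, and without 24h replicate 1 only 1 was lower. Myl9 and Cnn2 were among the calls lost without it.

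Genes of mesenchymal transition, adhesion and matrix moved in both directions, 10 of 36 tested higher and 9 lower (median 0.24). Vim (vimentin), the filament protein of mesenchymal cells, read 1.30 and 2.54 at 24h, against 3.92 and 4.31 at 0h (-2.20 ± 0.37, adjusted p = 0.00233). The transcription factor Zeb1 read -5.31 and -2.92, against -0.76 and -0.31 (-3.58 ± 0.62, adjusted p = 0.00259), and its functional relative Snai2 read -4.64 and -4.45, against -2.39 and -2.30 (-2.21 ± 0.43). Fn1 (fibronectin) was lower as well (-1.07 ± 0.21). S100a6, a calcium-binding protein, read 7.87 and 7.13 at 24h, against 3.48 and 3.98 at 0h (3.77 ± 0.35, adjusted p = 0.000147). Hmga2, a chromatin architectural protein, rose by 3.65 ± 0.56.

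A secreted protease and surface receptors gave large rises. Mmp9, a secreted gelatinase, was not well above background at 0h and was brighter at 24h by at least 26.4-fold (adjusted p = 5.1e-05). Plaur, the urokinase receptor, read 5.40 and 4.53 at 24h, against 2.07 and 1.65 at 0h (3.11 ± 0.60, adjusted p = 0.00447). Itga3, a laminin-binding integrin subunit, read 4.01 and 2.93, against -1.83 and -1.24 (5.0 ± 0.35, adjusted p = 3.9e-05). The epithelial adhesion genes Cdh1 (E-cadherin) and Epcam gave no call, at 0.24 ± 0.12 and 0.39 ± 0.37, and Ocln changed by 1.85 ± 0.61 (adjusted p = 0.0527, and 0.000552 with the replicate block).

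Fos and Jun family proteins bind the AP-1 element, and because several of their genes were higher, promoter windows of all genes that had one were searched for the letters TGANTCA on both strands. The windows reach from 250 bases before to 50 bases after the annotated start and come from RefSeq (GRCm38.p6). Of 328 genes called higher by about 4-fold or more that had a window, 37 held a match (11.3%). No test was made of these shares. The share was 8.4% of 262 genes called lower by as much, 6.6% of the 12433 tested genes with a window and 8.97% of all 27025 genes with one. Some ETS factors were higher too, and the ETS letters CCGGAAGT were in the windows of 3.35% of the genes called higher by that much, 1.15% of those called lower, 7.59% of the tested genes and 4.31% of all genes. For the CRE letters TGACGTCA these shares were 3.05%, 3.44%, 3.26% and 2.03%. Among named genes with a match, 3 are shown, Itga3 and Plaur as the strongest of the adhesion genes and Csrnp1, an immediate early nuclear protein that rose by 2.21 ± 0.39, as a window with 2 matches. Capitals mark the matched letters, where N stands for any base. The Itga3 match reads TGAATCA and lies after the annotated start, while those of Plaur and Csrnp1 read TGACTCA and TGAGTCA and lie before it. A match is a description of the sequence and not a shown binding site. The Itga3 window is chr11:95069149-95069448 on the minus strand, the Plaur window chr7:24462233-24462532 on the plus strand and the Csrnp1 window chr9:119982974-119983273 on the minus strand.
Itga3: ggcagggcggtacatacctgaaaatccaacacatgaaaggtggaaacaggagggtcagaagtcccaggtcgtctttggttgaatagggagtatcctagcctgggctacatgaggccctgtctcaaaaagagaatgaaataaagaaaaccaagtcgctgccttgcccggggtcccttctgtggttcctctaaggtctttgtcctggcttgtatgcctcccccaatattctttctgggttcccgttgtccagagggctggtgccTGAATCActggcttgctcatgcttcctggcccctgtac
Plaur: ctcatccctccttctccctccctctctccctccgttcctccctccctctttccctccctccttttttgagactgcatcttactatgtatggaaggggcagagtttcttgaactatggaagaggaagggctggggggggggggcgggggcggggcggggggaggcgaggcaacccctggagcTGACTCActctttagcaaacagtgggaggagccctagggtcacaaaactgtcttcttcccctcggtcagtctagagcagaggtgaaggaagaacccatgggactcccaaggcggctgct
Csrnp1: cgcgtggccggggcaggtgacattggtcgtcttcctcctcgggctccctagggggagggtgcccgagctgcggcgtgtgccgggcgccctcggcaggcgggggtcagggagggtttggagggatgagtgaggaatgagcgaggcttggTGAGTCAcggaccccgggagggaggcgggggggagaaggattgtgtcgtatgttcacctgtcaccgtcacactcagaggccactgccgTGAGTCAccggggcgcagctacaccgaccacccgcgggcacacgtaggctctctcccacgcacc

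In the growth factor list a receptor changed most. Fgfr4, an FGF receptor that is not the main one of naive stem cells, read 4.62 and 3.74 at 24h, against -1.46 and -1.86 at 0h, a 57.3-fold rise (5.84 ± 0.37, adjusted p = 2.37e-05). Fgfr4 exceeded its 8h level by 3.70 (adjusted p = 0.000817). Areg (amphiregulin), an EGF receptor ligand, was at least 2.38-fold higher than at 0h, where it was not well above background (adjusted p = 0.000346). Hbegf, another EGF receptor ligand, read 4.42 and 3.85 at 24h, against 1.84 and 1.74 at 0h (2.34 ± 0.57), a call lost without 24h replicate 1 or either 0h array. The platelet-derived growth factors Pdgfa and Pdgfb were lower, at -1.78 ± 0.33 and -1.34 ± 0.24. Fgfr2 was lower at -1.04 ± 0.25, with its call lost without 24h replicate 1 or 0h replicate 2. Of 25 tested members 5 were higher and 6 lower, and 8 and 9 with the replicate block. There were 3 in each direction without 24h replicate 1.

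A retinoid gene had the highest bound of all genes. Aldh1a3, an enzyme that makes retinoic acid, read 2.52 and 1.85 at 24h, against -5.66 and -7.20 at 0h, where it was not well above background, and was at least 185-fold higher (adjusted p = 1.11e-05). The related enzyme Aldh1a2 was lower, at -1.37 and -1.24, against 0.28 and 0.01 (-1.45 ± 0.13, adjusted p = 0.000134). Cyp26a1, which breaks retinoic acid down and is induced by it, read 0.74 and -0.74 at 24h, against -3.51 and -3.05 at 0h (3.27 ± 0.56). The binding protein Crabp2 and the reductase Dhrs3 were lower (-1.71 ± 0.31 and -2.04 ± 0.27). Of 18 tested members 6 were higher and 4 lower (median -0.22).

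Of 14 tested prostaglandin genes 6 were higher and none lower, and 7 and 1 with the replicate block. Ptgs2 (Cox2), the inducible cyclooxygenase, was not well above background at 0h and was brighter at 24h by at least 13.3-fold (adjusted p = 0.00026). The receptor Ptger2 read -1.62 and -1.95 at 24h, against -4.66 and -5.15 at 0h (3.12 ± 0.23, adjusted p = 5.1e-05). Ptges, a synthase, read 5.50 and 5.59 at 24h, against 5.61 and 5.49 at 0h, and gave no call. The number higher was 5 without any 1 of the other arrays, with 1 lower gene without 24h replicate 2, and 4 without 0h replicate 1, when the calls of Pla2g4a and Ptgis were lost. The call of Pla2g4a also went without 24h replicate 2, and that of Ptgis without 24h replicate 1 or 0h replicate 2.

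Genes of the p53 and apoptosis list were higher in 10 of 28 tested and lower in 2 (median 0.42). Pmaip1 (Noxa), a BH3-only death factor, read 3.92 and 3.51 at 24h, against 0.15 and -0.12 at 0h (3.70 ± 0.31, adjusted p = 7.95e-05). Gadd45a, a stress-induced growth arrest protein, rose by 2.95 ± 0.33, Perp by 2.53 ± 0.33 and Bcl2l11 (Bim), a death factor that Erk is known to destabilise as a protein, by 2.44 ± 0.31. Gadd45b, a relative of Gadd45a, was lower, at -0.07 and 0.49 on the 24h arrays, against 2.36 and 2.42 on the 0h arrays (-2.18 ± 0.33). The standard p53 targets Cdkn1a and Bax gave no call (0.09 ± 0.27 and -0.15 ± 0.12). The number higher was 6 without 0h replicate 1, where the calls lost included those of Mdm2, Bcl2l1 and Tnfrsf10b. Those of Mdm2, Bcl2l1 and Tnfrsf10b were also lost without 24h replicate 1, and that of Bcl2l1 without 0h replicate 2, and Tnfrsf10b did not pass when any of the 4 arrays was left out.

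Among cell cycle regulators both inhibitors and activators changed. Cdkn1b (p27), an inhibitor of cyclin-dependent kinases, read 1.73 and 1.85 at 24h, against 2.99 and 2.96 at 0h (-1.19 ± 0.12, adjusted p = 0.000162). Cdkn2b (p15), another inhibitor, read 0.48 and 0.13, against -2.13 and -1.46 (2.10 ± 0.44), a call lost without 24h replicate 1 or 0h replicate 1. Of 27 tested regulators 6 were higher and 5 lower, and 8 and 9 with the replicate block. Only 1 was higher without 24h replicate 1. Of 34 tested genes of DNA replication and mitosis 1 was called, and the list median was -0.17. The block fit called 8 of them lower, and 21.1% of all genes tested were lower in that fit. Pcna, the replication clamp, read 6.82 and 6.79 at 24h, against 7.28 and 7.07 at 0h (-0.37 ± 0.13, adjusted p = 0.073, and 0.0119 in the block fit).

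Lysosome and autophagy genes were lower in 11 of 29 tested and higher in 2 (median -0.45). Mitf, a factor of the family that drives lysosome genes, read -0.34 and 0.34 at 24h, against 1.94 and 2.35 at 0h (-2.14 ± 0.34, adjusted p = 0.00168). Ulk1, the kinase that starts autophagy, read 4.54 and 5.05, against 6.36 and 6.63 (-1.70 ± 0.32). Lamp1, a lysosomal membrane protein, was lower by a smaller amount (-0.62 ± 0.13). Sqstm1 (p62), an autophagy receptor, rose by 2.15 ± 0.42, a call lost without 24h replicate 1. The cathepsins Ctsb and Ctsl gave no call (0.04 ± 0.16 and 0.27 ± 0.19). The number lower was 5 without 24h replicate 1 and 6 without either 0h array.

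Interferon-induced and antigen presentation genes were lower in 7 of 21 tested and higher in 3 (median -0.22). Ifitm1, a membrane protein that is high in stem cells, read 4.49 and 5.03 at 24h, against 7.29 and 7.39 at 0h (-2.58 ± 0.17, adjusted p = 2.57e-05). Ifitm2 and Ifitm3 were also lower, at -1.61 ± 0.17 and -0.83 ± 0.15. Bst2 (tetherin) read 4.79 and 4.25 at 24h, against 2.69 and 2.15 at 0h (2.10 ± 0.27, adjusted p = 0.000622). Isg15 and B2m gave no call (-0.22 ± 0.21 and -0.22 ± 0.15). Only Bst2 was higher without 0h replicate 2, since the calls of Ddx58 and Tap1 were lost. Ddx58 also lost its call without either 24h array, and Tap1 without 24h replicate 2 or 0h replicate 1 and under quantile normalization.

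Several metabolic lists gave few calls without the block. In the respiratory chain 5 of 30 tested genes were lower and 1 higher, and 13 and 2 with the replicate block. Ndufb5, a complex I subunit, read 4.92 and 4.78 at 24h, against 5.55 and 5.76 at 0h (-0.81 ± 0.12). Without 24h replicate 1 or either 0h array 2 genes of this list were lower and none higher. In cholesterol and fatty acid synthesis 3 of 33 were higher and 2 lower (9 and 5 in the block fit), in ribosome biogenesis 2 of 24 were higher and none lower (9 and 0 in the block fit), and in glycolysis and hypoxia 3 of 31 were higher and 3 lower. The shares higher, 9.09% for cholesterol and 8.33% for ribosome genes against 10.8% of all genes, were 27.3% and 37.5% with the replicate block, against 18.3% of all genes. Gapdh read 8.97 and 8.79 at 24h, against 8.97 and 9.01 at 0h. Of 19 housekeeping genes Hprt was higher (1.38 ± 0.20) and Sdha lower (-0.33 ± 0.11), the second of which lost its call without any 1 of the 4 arrays.

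In the unfolded protein and ATF4 list 7 of 27 tested genes were higher and 5 lower (15 and 6 in the block fit). The members that rose included Ddit3 (Chop), a stress factor, at 2.55 and 2.46 on the 24h arrays, against -0.06 and 0.04 on the 0h arrays (2.52 ± 0.56), and Xbp1 (1.07 ± 0.19). The endoplasmic reticulum chaperone Calr was lower, at 3.91 and 4.20, against 5.07 and 5.19 (-1.07 ± 0.20). Without 24h replicate 1 the list held 1 higher and 2 lower genes, and Ddit3 was among those lost, as it was without 0h replicate 1. Among imprinted genes Dlk1, a Notch-like ligand, rose by 1.74 ± 0.17 and Peg3 was lower at -2.24 ± 0.35. That list held 3 higher and 3 lower of 19, and 10 and 4 in the block fit. Among chromatin enzymes Kdm3a, a histone demethylase, read 2.85 and 3.76 at 24h, against 5.05 and 5.07 at 0h (-1.76 ± 0.23). The list held 3 higher and 5 lower of 25, and 7 and 8 in the block fit. The LIF and STAT3 list held 3 higher and 4 lower of 17, the Hox list 1 and 4 of 14, the 2-cell and germline list 5 and 3 of 17, the amino acid and glucose transporter list 5 and 2 of 16, and the heat shock list 2 and 0 of 13. Over all genes tested 10.8% were higher and 12.9% lower. With 24h replicate 1 left out the LIF list held 1 higher and 2 lower, the 2-cell list 2 and 1, the transporter list 2 and 2 and the heat shock list 1 and 0. With 0h replicate 2 left out the transporter list held 1 and 1. Of these, Il6st, the signalling subunit of the LIF receptor, was lower (-1.03 ± 0.15), and Slc7a7, a cationic amino acid transporter subunit, was higher (2.84 ± 0.51).

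**Figure D4:**
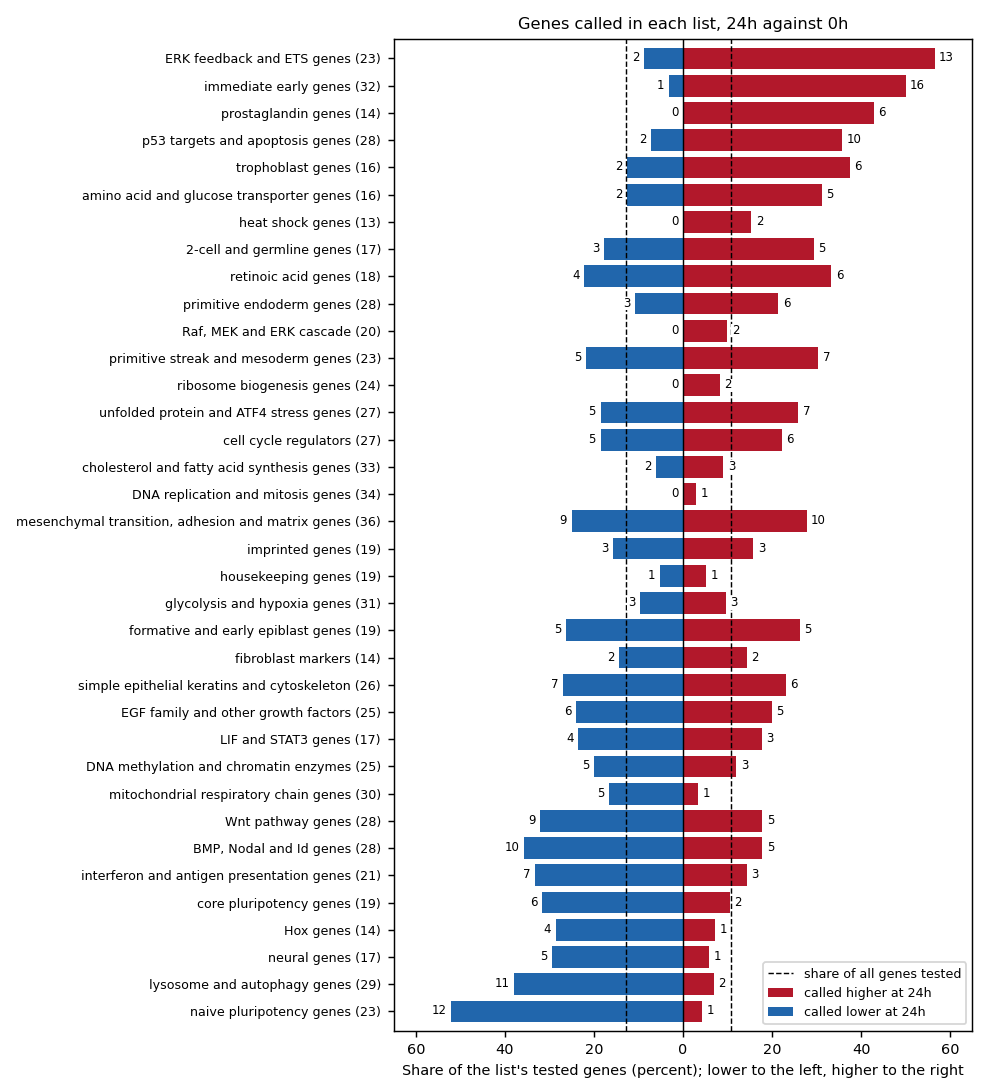
Share of each list's tested genes (number in brackets) called higher at 24h, red bars to the right, and lower, blue bars to the left, with the counts at the bar ends; the dashed lines mark the shares of all genes tested, 10.8% higher and 12.9% lower. The feedback list (13 higher) and the immediate early list (16 higher) reach furthest right, and the naive pluripotency list (12 lower) and the lysosome list (11 lower) furthest left.

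Outside the lists the largest rise among genes measured on all 4 arrays was that of Edn2 (endothelin 2), a secreted peptide. Edn2 read 3.49 and 1.59 at 24h, against -4.59 and -4.81 at 0h, a 151-fold difference (7.24 ± 0.86, adjusted p = 0.000418). Vgf, a growth factor-inducible secreted protein, read 3.57 and 3.36, against -2.78 and -2.17 (5.94 ± 0.47), and Esam, an endothelial adhesion molecule, read 1.22 and 0.61, against -4.67 and -4.21 (5.35 ± 0.34). Fhl2, a LIM protein, rose by 4.92 ± 0.39, Ubash3b, a tyrosine phosphatase, by 5.67 ± 0.68 and Nlrc4, an inflammasome protein, by 5.07 ± 0.80. Ovol1, an epithelial zinc finger factor, rose by 4.97 ± 1.01, a call lost without 24h replicate 1 or 0h replicate 2. Of the genes not measured above background at 0h, Grm6, a glutamate receptor, was at least 109-fold higher, Col6a5, a collagen chain, at least 67.6-fold and Baalc at least 58.8-fold.

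Among the largest falls outside the lists was Xaf1, an interferon-induced antagonist of apoptosis inhibitors. Xaf1 read -3.23 and -1.59 at 24h, against 2.78 and 2.81 at 0h (-5.21 ± 0.55, adjusted p = 0.000222). Pga5, a pepsinogen, read -3.21 and -1.75, against 2.77 and 2.91 (-5.32 ± 0.42, adjusted p = 6.07e-05). Mcf2, a guanine nucleotide exchange factor, read -4.29 and 0.72, against 3.76 and 3.70 (-5.52 ± 1.18). Hesx1, a homeobox repressor of the early forebrain and epiblast, was at -3.83 ± 0.93 and Neurog3 at -4.78 ± 1.22, both lost without 24h replicate 1 or 0h replicate 2. Lrrc15, a leucine-rich repeat membrane protein, was not well above background at 24h and was at least 42.6-fold lower (adjusted p = 0.000286), and Dio3, which inactivates thyroid hormone, was at least 11.5-fold lower.

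Set against the 8h arrays, 1384 genes differed at 24h (8.84% of those tested), 821 higher and 563 lower. Of the 3709 genes that differed from 0h, 1050 also differed from 8h in the same direction, and for 71.5% no difference between 24h and 8h was detectable by the test. The 24h arrays enter both comparisons, so the counts are not independent. Late risers included Gata6, Krt7, Krt19 and Fgfr4 as above, Itga3 (24h minus 8h, 2.54, adjusted p = 0.00254) and Shisa6 (4.81, adjusted p = 0.000849, with 1 of its 8h arrays well above background). Late falls included Vim (-2.67, adjusted p = 0.00272), Pax6 (-2.74, adjusted p = 0.000817) and Ifitm1 (-2.29, adjusted p = 0.000193). The differences of Gata6, Krt7, Krt19, Fgfr4, Itga3, Vim, Pax6 and Ifitm1 passed with either 24h array left out. The 8h arrays were not left out in turn. Nanog differed from 8h by -3.01 (adjusted p = 0.0429), a call lost without 24h replicate 1 and without either 0h array. The count was 355 without 24h replicate 1, and with the replicate block it was 3584.

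Set against DMSO cells, 1778 genes differed at 24h (11.4%), 1027 higher and 751 lower. Of the 3709 genes that differed from 0h, 1431 differed from DMSO in the same direction. Genes far above both included Aldh1a3, which was not well above background on the DMSO arrays (adjusted p = 7.22e-05), S100a6 (3.73 above DMSO, adjusted p = 0.000381), Egr1 (4.28, adjusted p = 0.002) and Krt18 (2.93, adjusted p = 0.000576). Gbx2 (1.77, adjusted p = 0.172), Myc (1.38, adjusted p = 0.178), Pou3f1 (0.96, adjusted p = 0.258) and Spry1 (0.64, adjusted p = 0.393) were above 0h by the test and not above DMSO by it, which does not show that their levels were alike. Calr, Ifitm3 and Cdkn1b were below 0h and gave differences from DMSO of -0.64, -0.33 and -0.36, none past the test. Hesx1 and Lrrc15, among the large falls from 0h, did not differ from DMSO at 24h by the test either (adjusted p = 0.956 and 0.573). The 0h levels of Hesx1 and Lrrc15 lay above DMSO by the test (adjusted p = 0.048 and 0.0048). The count was 356 without 24h replicate 1, and with the replicate block it was 4067.

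Of the 14510 tested probes that matched no gene name, 705 (4.86%) differed between 24h and 0h by the same test.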

How the data were processed

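RNA of mouse embryonic stem cells was measured on 16 one-colour Agilent arrays, 2 for each of 8 groups. The deposited intensity values are processed signals, corrected for background within each array by Feature Extraction 11.0.1.1, per the file headers, and not scaled between arrays. The headers name the green channel, while the labels name another dye. Scanner files were matched to the columns of the value table (tolerance 0.6%), and the column labels gave each array its group. The log2 values were computed here from the deposited intensities, minus the log2 of each array's 75th percentile over non-control spots. Spots marked as outliers were dropped and none was saturated.

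Of 55681 probes, 27656 matched 1 gene in the probe annotation (mm9) updated through RefSeq, none matched several and 28025 matched none. Each gene was represented by its probe of highest mean signal. Groups were compared with limma 3.58.1 in R 4.3.3 (8 group means, 8 residual degrees of freedom) and Benjamini-Hochberg adjustment over all genes tested. The script was tested on simulated data. Deviations from the group means, taken across genes between arrays of the same number, correlated at 0.33 to 0.66 in all 28 pairs of groups (0.35 for 24h with 0h), so the shared numbers, which are also the slides, were treated as pairs in an alternative fit. A fold given as "at least" uses an array's lowest signal well above background in place of any dimmer signal.

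The comparison, the 36 gene lists and the rule for named genes were chosen with earlier results of these data known. Any tested list member could be named, those called with the largest change first and, among those not called, those of highest signal. Over all genes the rule took the 15 largest called rises and the 15 largest called falls among genes well above background on all 4 arrays whose pairs moved alike, and the 10 largest bounds in each direction. Of these a part is printed. A few list members are not reported here, and the counts include them.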

Additional observations from a re-analysis of the deposited data

Results flagged for a closer look

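Probes that match no gene lie outside the comparisons of genes. Of 14510 such probes tested, 705 (4.86%) differed between 24h and 0h by the same limma test, 368 higher and 337 lower. They stand here because they are signal in data that the gene comparisons do not use. What they measure was not tested.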

How the results depend on the processing

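All 17 alternatives were listed with earlier results of these data known. The main count of 3709 genes at 24h against 0h (1687 higher, 2022 lower) became 6181 (2872 and 3309) with the replicate block, which follows the pairing of replicate numbers and slides, 1533 (805 and 728) with the 4 arrays alone, 2105 (789 and 1316) with median centring and 2088 (1064 and 1024) with a 2-fold minimum. Leaving out 1 array gave 1859 to 3244 genes, 833 to 1564 higher and 1026 to 1680 lower. The 1384 genes at 24h against 8h became 3584 with the replicate block, 520 with median centring, 787 with a 2-fold minimum and 355 to 1426 with 1 array left out. The 1778 at 24h against DMSO became 4067, 778, 1043 and 356 to 1938 in the same order. The 705 probes without a gene became 1730 with the replicate block, 443 with median centring, 201 to 484 with 1 array left out and 0 with the 4 arrays alone (limma, with 1920 at an unadjusted p under 0.05). Nanog, at -4.63, had the same value with the 4 arrays alone and did not pass there (adjusted p = 0.0761).

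Taking array identity from the attachment of the scanner files gave 331 genes at 24h against 0h (310 higher, 21 lower), 16 against 8h, 252 against DMSO and 1388 probes without a gene, and Nanog was at -0.91 (adjusted p = 0.855). That reading alone turned the direction of called genes that the text names, with log2 changes of Arc -1.09, Bmp4 -1.32, Braf -0.19, Csrnp1 -0.19, Ddx58 -0.32, Dusp4 -0.45, Dusp5 -0.18, Dusp6 -0.08, Etv1 -0.02, Fosl2 -0.23, Gata2 0.20, Hbegf -0.67, Id2 0.30, Lefty1 0.01, Myc -0.12, Neurog3 1.04, Nlrc4 -0.25, Ovol1 -0.43, Phlda1 -0.48, Plaur -0.62, Ptger2 -0.05, Slc7a7 -0.10, Sp5 -0.28, Spred1 -0.63, Spry1 -0.16, Tfcp2l1 0.03, Twist1 -0.94 and Utf1 -0.18. This alternative compares other arrays by construction, with both 24h arrays on the second slide and both 0h arrays on the first. A difference between slides cannot be told apart from a change with time in it. Other normalizations, filters, probe summaries and the value table signals kept the count of genes at 24h against 0h within 1.5 times. With 2 arrays a group, precision is limited by their number. Genes not well above background on either array of a group have only bounds, and changes of other genes near background are uncertain in size.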
